A study of Gallus gallus with 6 samples.

Results

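The genes described here belong to the apoptosis machinery, and they were read in RNA-seq libraries of the epithelium and the fiber cells of lenses from White Leghorn chick embryos at embryonic day 13 (E13). They comprise 4 promoters of cell death (CASP9, APAF1, CASP6 and AIFM1) and 5 inhibitors (BCL2, BCL2L1, MCL1, BIRC3 and XIAP), chosen by name. Of the 9 names, 8 matched a symbol among the 16561 entries of the deposited expression table, and XIAP matched none. The RefSeq gene table of chicken assembly GRCg7b lists XIAP as a synonym of BIRC8, and the BIRC8 entry is therefore given beside the inhibitors without being counted among the 8. RefSeq holds no chicken gene under the symbol BIRC3 and lists the related BIRC2 with the synonyms IAP1 and ITA. The expression table holds no entry under the symbol BIRC2, and the entry that it names BIRC3 may be that gene. The identifier of this entry could not be matched to the RefSeq table, so its identity is open and the name is kept here as a label.

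Each cell type was sampled in 3 biological replicates, each a pool of microdissected lenses, and the cell types were compared. The epithelial samples took in central and equatorial epithelium, and the fiber samples took in peripheral and central fibers, so each value is an average over cells at different steps of differentiation. The labels name no genetic or drug treatment in either group. The values are FPKM (fragment counts per transcript length and per mapped fragments), in which library depth and transcript length are divided out, and they carry no read counts.

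Apoptosis through mitochondria is held in check by BCL2-type proteins, which keep pore-forming relatives such as BAK1 from opening the outer mitochondrial membrane. Once cytochrome c is released, it binds APAF1, which assembles a platform that activates the initiator CASP9, and CASP9 in turn cleaves executioner caspases, to which CASP6 belongs. Inhibitor of apoptosis proteins (IAPs) act downstream on caspases or on the signals that lead to them. Differentiating lens fibers lose their nuclei and other organelles but are not removed as dying cells are, and for that reason the apoptosis genes have been of interest in this tissue.

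Markers of each cell type matched the labels. Of 11 tested fiber markers 10 were called higher in fiber cells, and all 6 tested epithelial markers were called lower. PAX6 was among the latter, at 40.5 FPKM in epithelial cells and 8.86 FPKM in fiber cells. Of all tested entries, 13.1% were called higher and 57.7% lower. ASL1 and ASL2, both among the fiber markers called higher, had identical values in every library, shared with GUSB, and so give a single measurement. Replicates correlated across genes with Pearson's r from 0.976 to 0.982 within a cell type, and libraries of unlike cell types with r from 0.745 to 0.822. Across the 10818 tested entries, fiber cells had a median log2 fold change of −0.62. The change of each of the 8 genes is therefore also given relative to the median entry, from libraries centred on their medians. With such centring the epithelial marker CDH1 was no longer called (log2 fold change −0.09), while the other tested epithelial markers were still called lower. Most marker lists of other cells were low, with summed levels of 5.27 to 6.11 FPKM in epithelial and 4.98 to 5.49 FPKM in fiber libraries for immune cells, 2.87 to 4.06 and 0.729 to 1.31 FPKM for blood vessel, and 1.68 to 2.13 and 8.73 to 14.8 FPKM for erythrocytes. Pigment cells stood at 1.70 to 4.82 and 0.522 to 0.715 FPKM, skeletal muscle at 0.240 to 1.08 and 0.394 to 0.700 FPKM, and neural retina at 2.40 to 3.07 and 2.21 to 3.16 FPKM. The list of connective tissue and cornea was higher, at 61.1 to 73.0 FPKM in epithelial and 15.1 to 18.7 FPKM in fiber libraries, most of it from PDGFRA (59.7 and 9.62 FPKM), a receptor that lens epithelium also carries. Members of a list did not all move alike. Of the erythrocyte markers, HBA1 (0.0531 FPKM in epithelial and 4.28 FPKM in fiber cells) and HBZ (0.0259 and 6.51 FPKM) were called higher. EPB42 (1.77 and 0.569 FPKM) was called lower. On the list of connective tissue and cornea, DCN (2.32 and 5.65 FPKM) was called higher, and KERA (3.59 and 1.01 FPKM) and PDGFRA lower. The part of cells other than lens cells in the results was not tested. In pooled tissue, fewer cells that express a gene and less of its RNA per cell cannot be told apart.

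Promoters and inhibitors each split between the cell types. Among the promoters, CASP6 fell 8.73-fold and APAF1 fell 4.16-fold in fiber cells, while AIFM1 rose 2.05-fold and CASP9 rose 1.37-fold. Among the inhibitors, BCL2, BCL2L1 and MCL1 fell 2.60-fold, 1.88-fold and 1.59-fold, and BIRC3 rose 3.59-fold. These folds are ratios of mean FPKM. A gene was called where limma gave an adjusted p under 0.05 and its change on the log2(FPKM + 0.1) scale exceeded 0.4 in either direction. By these criteria 3 of the 8 genes were called higher and 5 lower, where 70.8% of all tested entries were called, 13.1% higher and 57.7% lower. After centring, 3 were called higher and 3 lower, against 30.2% and 29.3% of all entries (59.4% called in all), and BCL2L1 and MCL1 were no longer called.

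All 8 genes passed the filter on low values, a mean of at least 0.5 FPKM, and CASP6 passed it through its epithelial level alone. None shared its values with another entry. In each of the 8 the libraries of the cell types did not overlap, which was also true of 79.7% of the tested entries (16.1% with fiber cells higher and 63.6% with fiber cells lower). For each of them a two-sided exact permutation test gave p = 0.1, the smallest that 3 against 3 libraries allow.

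**Figure D1:**
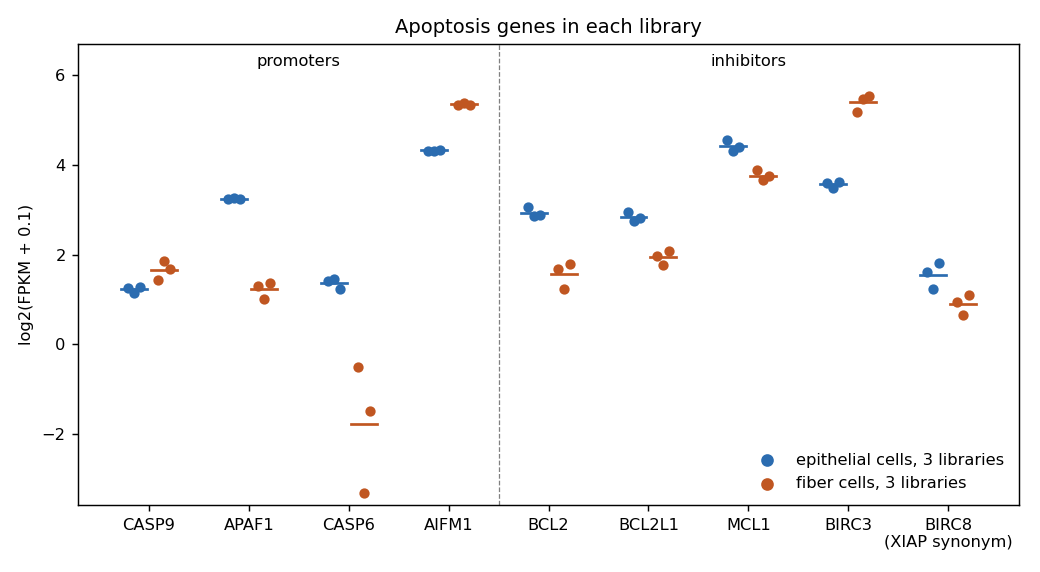
Each point is the log2(FPKM + 0.1) of a gene in 1 library, blue for the 3 epithelial and orange for the 3 fiber libraries, with a bar at their mean. BIRC8 stands for its RefSeq synonym XIAP. CASP6 dropped to the floor of 0.0001 FPKM in fiber replicate 2, while AIFM1 and BIRC3 lay above all epithelial libraries in each fiber library.

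CASP9 (ENSGALG00000001366), the initiator caspase of the mitochondrial pathway, was at 2.28, 2.12 and 2.31 FPKM in epithelial replicates 1 to 3 and at 2.60, 3.53 and 3.09 FPKM in fiber replicates 1 to 3. The fiber libraries were all higher, but the lowest of them stood close to the epithelial ones. Its log2 fold change was 0.43 (limma, standard error 0.14, adjusted p = 0.0211), just past the threshold of 0.4. The call was lost when 1 FPKM in place of 0.1 was added (log2 fold change 0.33), when limma asked whether the change exceeded 0.4 rather than 0 (adjusted p = 0.570), and without epithelial replicate 2 (0.40, adjusted p = 0.0620), fiber replicate 2 (0.33, adjusted p = 0.0536) or fiber replicate 3 (0.42, adjusted p = 0.0529). Relative to the median entry the change of CASP9 was 1.04 on the log2 scale (95% interval 0.70 to 1.38, limma adjusted p = 0.000536).

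APAF1 (ENSGALG00000011531), the scaffold on which CASP9 is activated, was at 9.39, 9.43 and 9.30 FPKM in the epithelial libraries and at 2.37, 1.92 and 2.47 FPKM in the fiber libraries. The epithelial values varied by less than those of any other gene of the 8, with a coefficient of variation of 0.745%. The log2 fold change was −2.02 (limma, standard error 0.12, adjusted p = 5.16e-06) and −1.41 relative to the median entry (adjusted p = 2.02e-05). APAF1 and its caspase moved in opposite directions, and the ratio of CASP9 to APAF1 within a library was 0.224 to 0.249 in epithelial and 1.10 to 1.84 in fiber cells.

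CASP6 (ENSGALG00000012186) encodes an executioner caspase known for cleaving nuclear lamins. It was at 2.54, 2.64 and 2.24 FPKM in epithelial cells and at 0.597, 0.0001 and 0.253 FPKM in fiber cells, where 0.0001 is the value listed in place of 0. Fiber libraries were all lower, and they differed widely among themselves (mean 0.283 ± 0.300 FPKM, SD, n = 3). The log2 fold change was −3.14 (limma, standard error 0.61, adjusted p = 0.00172) and −2.53 relative to the median entry (95% interval −3.95 to −1.12). Its size rested on the added 0.1 FPKM and on the library at the floor. It was −1.46 with 1 FPKM added, −4.40 with 0.01 FPKM added and −2.37 without fiber replicate 2, and the gene was called lower each time. With 0.1 FPKM added, 1.97% of the tested entries had a lower log2 fold change than CASP6, which passed the filter through its epithelial level alone.

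AIFM1 (ENSGALG00000004003) encodes a flavoprotein of the mitochondrial intermembrane space that is needed for respiratory chain assembly and that moves to the nucleus in caspase-independent death. Its levels were 19.8, 19.9 and 20.2 FPKM in epithelial cells and 40.4, 41.6 and 40.4 FPKM in fiber cells. Replicates agreed closely, with coefficients of variation of 0.987% and 1.78%, and the difference was many times their spread. The log2 fold change was 1.03 (limma, standard error 0.07, adjusted p = 8.41e-06), or 1.64 relative to the median entry (adjusted p = 4.57e-06). AIFM1 held 58.2% to 59.3% of the summed FPKM of the 4 promoters in epithelial libraries and 87.4% to 88.4% in fiber libraries, and APAF1 held 27.3% to 27.7% and 4.07% to 5.35%.

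BCL2 (ENSGALG00000012885), the founding inhibitor of its family, was at 8.21, 7.13 and 7.28 FPKM in epithelial cells and at 3.10, 2.25 and 3.37 FPKM in fiber cells. The highest fiber library was well below the lowest epithelial library. Its log2 fold change was −1.36 (limma, standard error 0.16, adjusted p = 0.000106), and it was called lower relative to the median entry as well, at −0.76 (adjusted p = 0.00166).

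BCL2L1 (ENSGALG00000006211) encodes BCL-XL, which guards the outer mitochondrial membrane as BCL2 does. Its levels were 7.67, 6.58 and 6.95 FPKM in epithelial cells and 3.80, 3.30 and 4.15 FPKM in fiber cells. The log2 fold change was −0.90 (limma, standard error 0.12, adjusted p = 0.000214). Relative to the median entry it was −0.29 (95% interval −0.52 to −0.07, adjusted p = 0.0281), which missed the fold change criterion.

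MCL1 (ENSGALG00000044383), an inhibitor known for the rapid turnover of its protein, was at 23.6, 19.9 and 20.9 FPKM in epithelial cells and at 14.6, 12.5 and 13.4 FPKM in fiber cells. The cell types did not overlap, with a log2 fold change of −0.66 (limma, standard error 0.10, adjusted p = 0.000432). That is close to the change of the median entry, and relative to it MCL1 differed by −0.06 (95% interval −0.25 to 0.14, adjusted p = 0.573). With division of each library by its 75th percentile the log2 fold change was −0.36, also under the fold change criterion. With quantile normalization MCL1 was still called lower (−0.53, limma adjusted p = 0.00137).

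The 3 BCL2-type genes changed by unequal amounts, as seen in ratios within a library, which do not depend on a single scaling factor per library. Quantile normalization is not such a factor, and with it BCL2 still fell most (log2 fold change −0.85). There MCL1 (−0.53) fell more than BCL2L1 (−0.42), so the order of these 2 genes depended on the normalization. The ratios that follow are of FPKM as deposited. The ratio of BCL2 to BCL2L1 was 1.05 to 1.08 in epithelial libraries and 0.680 to 0.817 in fiber libraries. BCL2 over MCL1 was 0.348 to 0.358 and 0.180 to 0.252, and MCL1 over BCL2L1 was 3.00 to 3.08 and 3.22 to 3.85. None of these ranges overlapped between the cell types, which for single values was true of 79.7% of the tested entries. How often ratios of other gene pairs separate was not determined. Among these 3 genes MCL1 held the largest share of the summed FPKM, at 59.2% to 59.8% in epithelial and 64.0% to 69.2% in fiber cells. The inhibitory relative BCL2L10, described below and not among the 3, was above MCL1 in both.

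BIRC3 (ENSGALG00000017186), an IAP by its label, was the inhibitor that rose. It was at 12.1, 11.2 and 12.2 FPKM in epithelial cells and at 36.2, 44.3 and 46.8 FPKM in fiber cells, with no overlap. The log2 fold change was 1.83 (limma, standard error 0.11, adjusted p = 5.38e-06) and 2.44 relative to the median entry (adjusted p = 4.70e-06), and 97.2% of the tested entries had a lower log2 fold change. In mammals both BIRC2 and BIRC3 are ubiquitin ligases of tumor necrosis factor signaling. The immune marker PTPRC was at 0.0814 FPKM in epithelial and 0.0159 FPKM in fiber cells and CD8A was at the floor in every library, while CD3E was at 0.0725 and 2.55 FPKM. Of the 2 tested immune markers, CD3E was called higher in fiber cells and CD74 lower (4.89 FPKM in epithelial and 2.11 FPKM in fiber cells). The part of CD3E-expressing cells in the BIRC3 level was not tested.

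BIRC8 (ENSGALG00000008491), listed by RefSeq with the synonym XIAP, the IAP that binds and blocks active caspases directly in mammals, was at 2.97, 2.26 and 3.40 FPKM in epithelial cells and at 1.81, 1.46 and 2.03 FPKM in fiber cells. With the deposited values it was called lower, at a log2 fold change of −0.66 (limma, standard error 0.19, adjusted p = 0.0117), but relative to the median entry it differed by −0.06 (95% interval −0.45 to 0.34, adjusted p = 0.780) and with quantile normalization its sign turned (0.12). The ratio of CASP9 to BIRC8 was 0.680 to 0.938 in epithelial and 1.44 to 2.42 in fiber libraries, and that of BIRC3 to BIRC8 was 3.58 to 4.95 and 19.99 to 30.4. The ratio of CASP6 to BIRC8 went the other way, from 0.660 to 1.17 in epithelial cells to at most 0.330 in fiber cells.

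**Figure D2:**
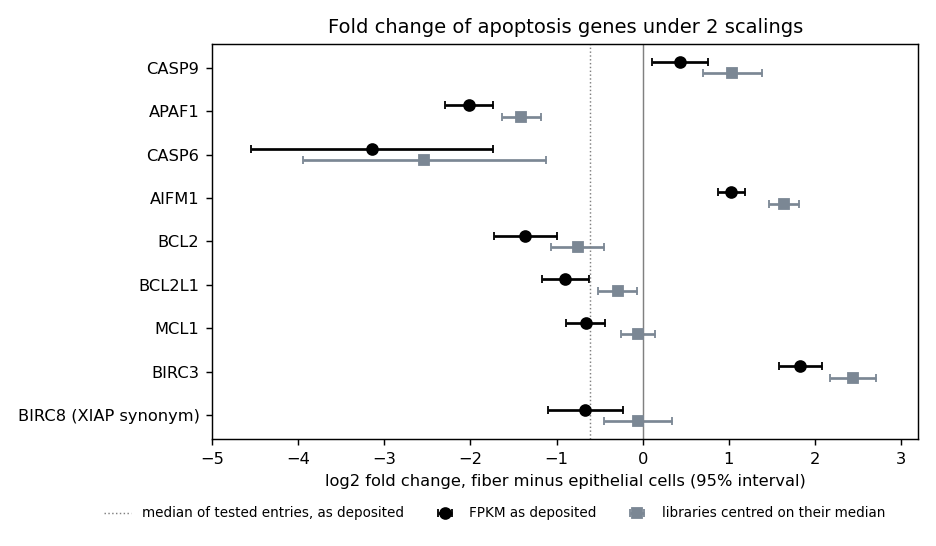
Points are limma log2 fold changes of fiber against epithelial cells with 95% intervals, in black for FPKM as deposited and in grey for libraries centred on their median, and the dotted line marks the median of all tested entries (−0.62). MCL1 and BIRC8 (both −0.06 after centring) lay beside the median entry, and CASP6 had the widest interval.

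**Figure D3:**
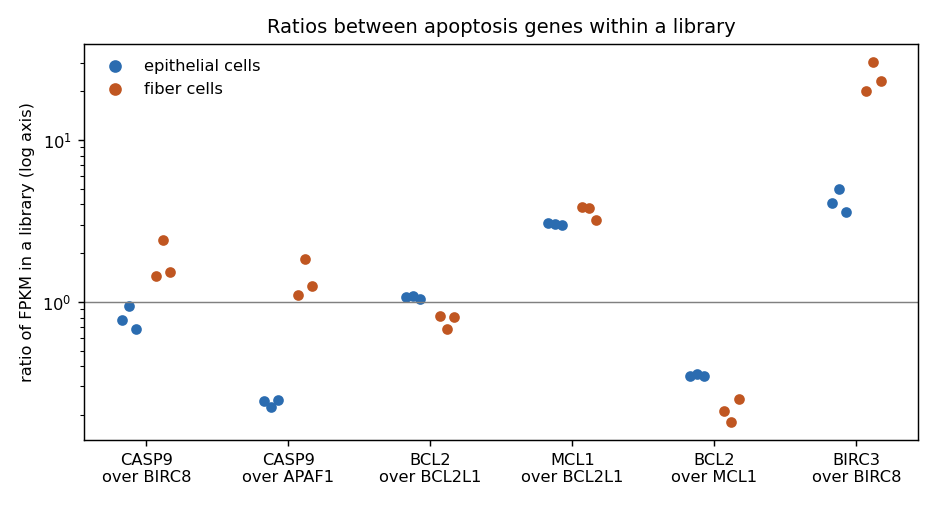
Each point is the ratio of the FPKM of a pair of genes within 1 library, on a log axis, blue for epithelial and orange for fiber cells (3 libraries each; CASP6 over BIRC8 is not drawn). CASP9 over APAF1 rose from 0.224 to 0.249 in epithelial cells to 1.10 to 1.84 in fiber cells, and BIRC3 over BIRC8 from 3.58 to 4.95 to 19.99 to 30.4.

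Promoters and inhibitors were also set against each other as sums. The summed FPKM of the 4 promoters was 34.0 to 34.1 in epithelial and 46.0 to 47.1 in fiber libraries, that of the 4 matched inhibitors was 44.8 to 51.5 and 57.8 to 67.6, and the ratio of the sums overlapped between the cell types, at 0.659 to 0.761 and 0.683 to 0.796. AIFM1 and BIRC3, the most abundant in fiber cells, carried most of both sums there. Without them, in a comparison chosen after the values were seen, the ratio was 0.360 to 0.422 in epithelial and 0.259 to 0.302 in fiber libraries and did not overlap. How often such ratios separate for other sets of genes was not determined. The medians of the log2 fold changes were −0.79 for promoters and −0.78 for inhibitors.

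By mean FPKM the order in epithelial cells was MCL1, AIFM1, BIRC3, APAF1, BCL2, BCL2L1, CASP6 and CASP9. The neighbors MCL1 and AIFM1, BCL2 and BCL2L1, and CASP6 and CASP9 overlapped in their libraries and were not separated by their spread. In fiber cells the order was BIRC3, AIFM1, MCL1, BCL2L1, CASP9, BCL2, APAF1 and CASP6, with overlap between BIRC3 and AIFM1 and between each neighbor from BCL2L1 to APAF1. CASP6 moved from above 24.3% of the tested entries by level in epithelial cells to above 3.85% in fiber cells, while CASP9 moved from 21.5% to 49.8% and BIRC3 from 81.8% to 95.9%. The fiber rank of CASP6 is bound to be low, since it passed the filter of 0.5 FPKM through its epithelial level alone. An entry that passes this way falls among the lowest tested entries of fiber cells. A rank also depends on the other tested entries, whose median log2 fold change was −0.62. BIRC8, called lower as deposited, still moved from above 29.7% of them to above 31.7%.

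The remaining genes of the pathway were read from lists of other caspases, BH3-only proteins, pore-forming and other BCL2 relatives, and other IAPs. Further lists held mitochondrial factors and IAP antagonists, death receptors, caspase targets and genes of DNA breakdown, and p53 and stress inputs. Of 65 entries found, 49 were tested, and in fiber cells 10 of these were called higher and 28 lower. These shares of 20.4% and 57.1% stood beside 13.1% and 57.7% of all entries. The entries called lower include BIRC8, described above, both entries named LMNA, and GSN, which shares its values with other entries. After centring, 14 were called higher and 17 lower (28.6% and 34.7%, against 30.2% and 29.3% of all entries), and the 49 entries had a median of −0.06 relative to the median entry.

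Of the other caspases, the initiator CASP2 fell (log2 fold change −1.43, and −0.82 relative to the median entry). CASP8, the initiator at death receptors, was called lower as deposited (−1.30) but not relative to the median entry (−0.69, limma adjusted p = 0.107).

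Genes that act at the mitochondrial membrane moved in both directions. The BH3-only proteins BID, which links death receptors to mitochondria, and BMF had log2 fold changes of −2.33 and −2.83 and were called lower under both scalings, as was BCL2L11 (−1.41 and −0.80), which lost its call with quantile normalization (−0.60). In BMF fiber replicate 2 stood apart at 0.300 FPKM, against 1.87 and 1.76 FPKM in replicates 1 and 3, and its log2 fold change without that replicate was −2.08. BAK1, the only tested pore-forming gene, fell from 9.87 ± 1.69 to 1.64 ± 0.289 FPKM (SD, n = 3 each; log2 fold change −2.52, −1.91 relative to the median entry, limma adjusted p = 9.62e-06 and 3.44e-05). BOK was below the filter, at 0.387 and 0.231 FPKM. BNIP3 and BNIP3L, BH3-only proteins best known as receptors for the removal of mitochondria by autophagy, rose instead. BNIP3 went from 16.8 ± 1.82 to 47.4 ± 7.64 FPKM and BNIP3L from 158 ± 10.3 to 232 ± 19.2 FPKM (SD, n = 3 each), with log2 fold changes of 1.49 and 0.55. BNIP3L was no longer called when limma asked whether the change exceeded 0.4.

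The inhibitor with the highest level of the BCL2 family was not among the 8 genes. BCL2L10, for which the table also gives the chicken name NR13, was at 62.6 ± 1.49 FPKM in epithelial and 44.5 ± 4.18 FPKM in fiber cells (SD, n = 3 each), above MCL1 in both. Its log2 fold change was −0.50 as deposited and 0.11 relative to the median entry (95% interval −0.06 to 0.28), so that its sign turned with the scaling. BCL2L13 was at 29.7 and 25.4 FPKM and was not called. Its fiber replicate 1 stood apart at 37.97 FPKM, against 18.1 and 20.01 FPKM in replicates 2 and 3, and without that replicate it was called lower (−0.63). Of the other IAPs, BIRC5 (survivin), which also acts in mitosis, fell from 2.60 to 0.253 FPKM (log2 fold change −3.14). BIRC5 passed the filter through its epithelial level alone, and its log2 fold change ran from −3.69 to −1.54 over the alternatives, called lower each time. The very large BIRC6 was at 14.3 and 13.5 FPKM, with a log2 fold change of −0.09 as deposited and 0.52 relative to the median entry.

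The list of mitochondrial factors and IAP antagonists is a grouping made here and does not place each gene in mitochondria. On it PDCD5 rose from 29.8 to 43.5 FPKM (log2 fold change 0.54), although its call was lost in the test against 0.4. HTRA2, a protease that antagonizes IAPs, was at 12.8 and 15.5 FPKM (log2 fold change 0.28, and 0.89 relative to the median entry). The other 4 tested genes of the list, CYCS, DIABLO, ENDOG and AIFM2, were called neither as deposited nor after centring, and the sign of the last 3 turned with centring. ENDOG was called lower without fiber replicate 2 (−0.47) and AIFM2 higher with quantile normalization (0.49). The libraries of CYCS, which encodes cytochrome c, spread widely, with coefficients of variation of 50.3% and 62.2%. CYCS was called lower without epithelial replicate 3 (log2 fold change −1.38), without fiber replicate 2 (−1.31) and with a block for replicate number in the model (−0.84).

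Of the 12 tested genes around death receptors, 3 were called higher and 7 lower (25% and 58.3%, against 13.1% and 57.7% of all entries). After centring there were 4 of each (33.3%, against 30.2% and 29.3% of all entries). The share called lower as deposited and both shares after centring lay near those of all entries. The share called higher as deposited was above that of all entries, a difference that was not tested. The ligand TNFSF10 (TRAIL) fell from 30.6 to 5.77 FPKM (log2 fold change −2.39), and the receptor TNFRSF1A from 5.34 to 1.37 FPKM (−1.91). FAIM2, an inhibitor of FAS-induced death, rose from 1.36 ± 0.119 to 23.9 ± 2.97 FPKM (SD, n = 3 each). The log2 fold change of FAIM2 was 4.04 (limma, standard error 0.12, adjusted p = 5.40e-07). FAS itself was below the filter and at the floor in 5 libraries. FASLG (0.286 FPKM in epithelial and 0.455 FPKM in fiber cells) and TNFRSF10B (0.169 and 0.00853 FPKM) were also below the filter. TNFRSF1B, with a log2 fold change of 0.98, was at 0.493 and 1.07 FPKM and passed the filter through its fiber level alone.

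On the list of caspase targets and DNA breakdown, DFFB, the nuclease that cuts DNA between nucleosomes in apoptosis, rose from 4.68 ± 0.493 to 27.7 ± 2.57 FPKM (SD, n = 3 each; log2 fold change 2.54, limma adjusted p = 1.70e-06). Its inhibitor DFFA rose from 6.96 ± 0.242 to 14.5 ± 4.74 FPKM (0.99, limma adjusted p = 0.00469). PARP1, a classical caspase substrate, was at 24.8 and 15.3 FPKM and fell by 0.69 on the log2 scale, but by 0.09 relative to the median entry. Both entries named LMNA, which carry LMNB2 as an alternate symbol and are uncertain as to gene, were called lower (−2.40 and −2.54). They passed the filter through their epithelial levels alone, at 1.39 and 0.185 FPKM for the one and 1.002 and 0.0893 FPKM for the other, and over the alternatives their log2 fold changes ran from −2.88 to −1.01 and from −3.40 to −0.87. GSN shared its values with 6 other entries and cannot be assigned. Of the p53 and stress inputs, MDM2 and MAPK8 were called lower under both scalings (−1.25 and −1.13 as deposited), MAPK8 losing its call with quantile normalization (−0.38), and AKT1 was called lower as deposited (−0.65) but not with the 75th percentile, centring or quantile normalization. PPP1R13B was not called as deposited (0.19) and was called higher under each of these, at 0.79 with centring. PPP1R13B and TP73 (log2 fold change 2.88) each shared their values with 1 other entry, so their signal may belong to that entry.

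**Figure D4:**
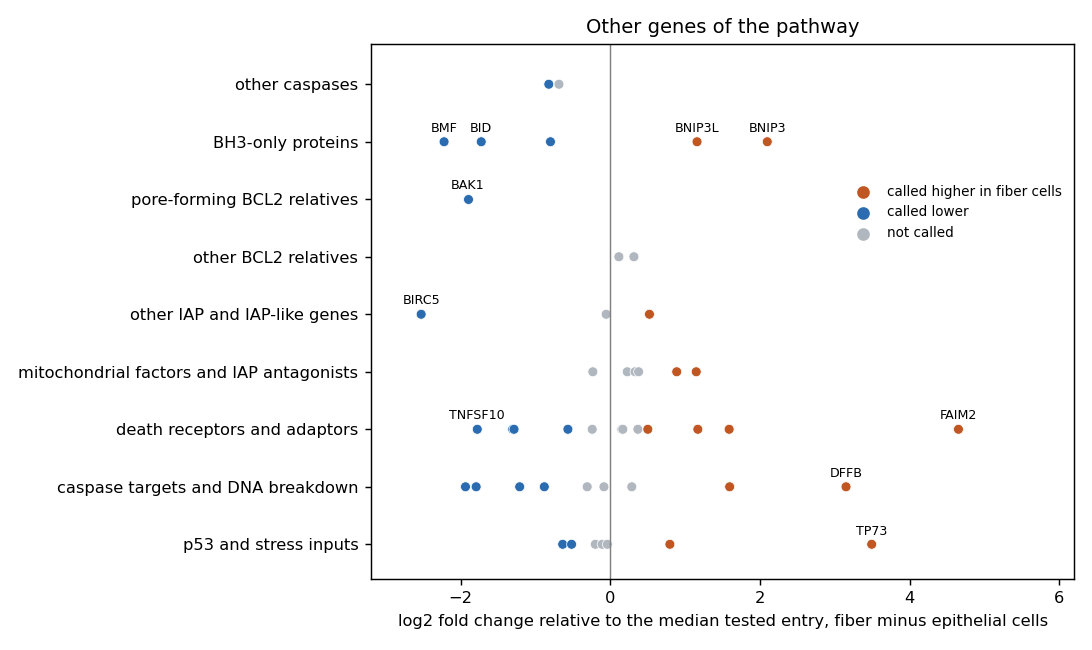
Each point is a tested entry of the wider pathway lists (a few of the caspases are not drawn), placed by its log2 fold change relative to the median entry in fiber against epithelial cells and colored by its call after centring (orange higher, blue lower, grey not called). FAIM2 (4.65), TP73 (3.49) and DFFB (3.15) lay far to the right, and BIRC5 (−2.53) and BMF (−2.22) to the left.

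The tested entry whose log2 values followed those of each gene most closely over the 6 libraries, by the root-mean-square distance of values centred on their own means, was SH3GLB1 for AIFM1 (0.0339), SPTSSA for BIRC3 (0.0816), SMCHD1 for APAF1 (0.0410), PGM5 for CASP6 (0.296), FBXO34 for CASP9 (0.0416), NLGN1 for BCL2 (0.0232), FMR1 for BCL2L1 (0.0261) and MBNL3 for MCL1 (0.0357). The distances are descriptions over 6 libraries of 2 cell types.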

How the data were processed

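Total RNA of 6 samples, 3 per cell type, was sequenced by the authors as stranded paired-end libraries, trimmed with Cutadapt, mapped to galGal6 with Bowtie2 and HISAT2, and assembled with StringTie and gffcompare, and expression was estimated with edgeR. The deposited FPKM values per gene and library result from these steps, with 0.0001 listed in place of 0. The deposited average FPKM columns were not used. The deposited fold change ratio, its log2 value, and the p-value and q-value columns hold the authors' own comparison and were not used. No read counts are given, so library depth is unknown, and precision comes from the replicates alone. Whether counting used strand is not given in the sources used here.

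The 10818 entries whose mean reached 0.5 FPKM were compared (5743 fell below) as log2(FPKM + 0.1), in which the added 0.1 makes changes of low genes smaller, by limma 3.58.1 with a mean-variance trend in R 4.3.3, with Benjamini-Hochberg adjustment across these entries. The limma test was also run on simulated data with few changed entries and no overall shift between the groups. That setting is unlike these data, where 70.8% of the tested entries were called, so the run does not bear on such a shift. The genes and lists were chosen with earlier results of these data known. Genes named from the wider lists were the 2 with the highest mean FPKM and the 2 with the largest called change in each direction, without overlap between the libraries, and others (BCL2L11, CYCS, DIABLO, ENDOG, AIFM2) were named after their values were seen. Some symbols of the lists matched no entry and are not analysed here. The counts over the lists include a few genes whose values are not reported here. Alternatives covered the added value, filter, scaling, moderation, identical entries, a replicate block and each library left out. The limma p-values set the difference between the cell types against the spread between the pools of each, moderated across the tested entries.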

Additional observations from a re-analysis of the deposited data

How the results depend on the processing

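AIFM1, APAF1, BCL2, BIRC3 and CASP6 kept their direction and their call under each of the 18 alternatives, and no gene of the 8 changed direction. Median centring left BCL2L1 (log2 fold change −0.29) uncalled, and MCL1 as well (log2 fold change −0.056), and division by the 75th percentile left MCL1 (−0.36) uncalled. Centring therefore gave 3 genes lower in place of 5, and 1 inhibitor lower in place of 3. Quantile normalization kept all 5 called lower, BCL2L1 (−0.42) and MCL1 (−0.53) among them. CASP9 was uncalled with 1 FPKM added (0.33) and in the test against 0.4 (0.43), which left 1 promoter called higher in place of 2. With 1 library left out in turn the log2 fold change of CASP9 lay between 0.33 and 0.54, and 1 to 2 promoters were called higher. Across the table, 1415 entries called higher became 2131 with the 75th percentile, 2884 with quantile normalization and 3263 with centring, and 6240 called lower became 3228 with quantile normalization and 3167 with centring. In the wider lists 28 entries called lower became 17 with quantile normalization and 17 with centring. Centring removes a difference of −0.61 between the median log2 values of the cell types, and the cause of the other changes was not tested. Counting BIRC8 as XIAP, an alternative chosen after seeing the data, gave 6 genes lower. Same-numbered replicates of the cell types correlated in their deviations at 0.0659 to 0.0858 and others at −0.0495 to −0.0235, so each sample correlated best with its own number. Nothing in the labels pairs them. The paper describes the lenses of a replicate as dissected into both cell types, without stating that equal numbers share lenses. The main test treated the libraries as unpaired. A replicate block gave 1436 entries higher and 6268 lower and changed no call of the 8 genes, while CYCS (−0.84), not called without the block, was called lower. Low levels such as CASP6 in fiber cells are limited by a depth that the values do not give.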

Other observations

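A few ratios within a library were computed after the values had been seen, and they are given as values only. AIFM1 over APAF1 was 2.11 to 2.17 in epithelial libraries and 16.3 to 21.7 in fiber libraries. BIRC3 over BCL2, a ratio of the inhibitor that rose to the inhibitor that fell most, was 1.47 to 1.67 and 11.7 to 19.7.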
